A study of Gallus gallus with 2 samples.

Results

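The brains of male and female chicks were compared after 1 h of training, from the trained pool of each sex. These are 2 of the 4 RNA pools in the series, and the other two are the dark-reared pools of the same sexes. All pools came from whole brains of newly hatched Cobb chicks, a broiler strain, and each held RNA of 8 chicks, so animals had been combined before measurement and no chick can be seen alone. The chicks had been sexed by PCR on their RNA. The trained chicks had been given 1 h of imprinting training, and the dark-reared chicks had been kept without light. The trained pools carried Cy3 and the dark-reared pools Cy5, with 1 two-colour array per sex on the same slide. This assignment rests on the source, treatment and dye labels and the labelling protocol, which give it alike, whereas the codes that end the sample titles put the dark-reared pool first and do not name a dye. Were the dyes the other way round, the values given as trained and as dark-reared would change places, while male and female would not. Sex and array therefore cannot be told apart, and the comparison has no replicate and no test. Every difference below is a size, written as male minus female on the log2 scale, with positive values higher in males.

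In birds the male carries a pair of Z chromosomes and the female carries a Z and a W. The W is small, holds few genes, and most of them have a related copy, called a gametolog, on the Z. Birds lack a chromosome-wide mechanism that equalises Z expression between the sexes, and the balance is known to differ from gene to gene.

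The array held 42034 probes for chicken transcripts, each spotted once. In the trained channel 62.9% of them were well above background in females and 61.5% in males, and 0 were saturated. The comparison used the 25350 probes well above background in both sexes, of which 8114 could be given a gene symbol (7318 genes). The 10 spike-in transcripts, control RNAs spotted 32 times each, differed between the arrays by means of 0.00 to 0.06, with a spot-to-spot SD of 0.08 and a largest single-spot gap of 0.37. Of these 25350 probes 280 (1.10%) differed at least 1.5-fold, 227 (0.895%) being higher in males and 53 (0.209%) higher in females. At 2-fold the counts were 21 (0.0828%) and 10 (0.0394%). Where the file's chromosome is given it is that of the galGal2 build, and where a gene is said to be listed on a chromosome the listing is RefSeq's for GRCg7b.

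The named probes higher in males came largely from genes listed on the Z chromosome. Of the 92 such probes with a gene symbol, 82 belonged to genes listed on Z and 10 to genes on numbered chromosomes. Of the 9 named probes higher in females, all 9 belonged to genes on numbered chromosomes. Among all 8114 kept probes with a symbol, 351 were of genes listed on Z and 2 of genes listed on W. Genes off the sex chromosomes thus made up most named probes in any case. The W genes with signal in females alone are not among these counts and are given by bounds. Another 135 probes higher in males and 44 higher in females could not be named. By galGal2 position, 76 of all 227 probes higher in males lay on Z, 15 on W and 29 on numbered chromosomes. The other 107 had no chromosome in that build.

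**Figure D1:**
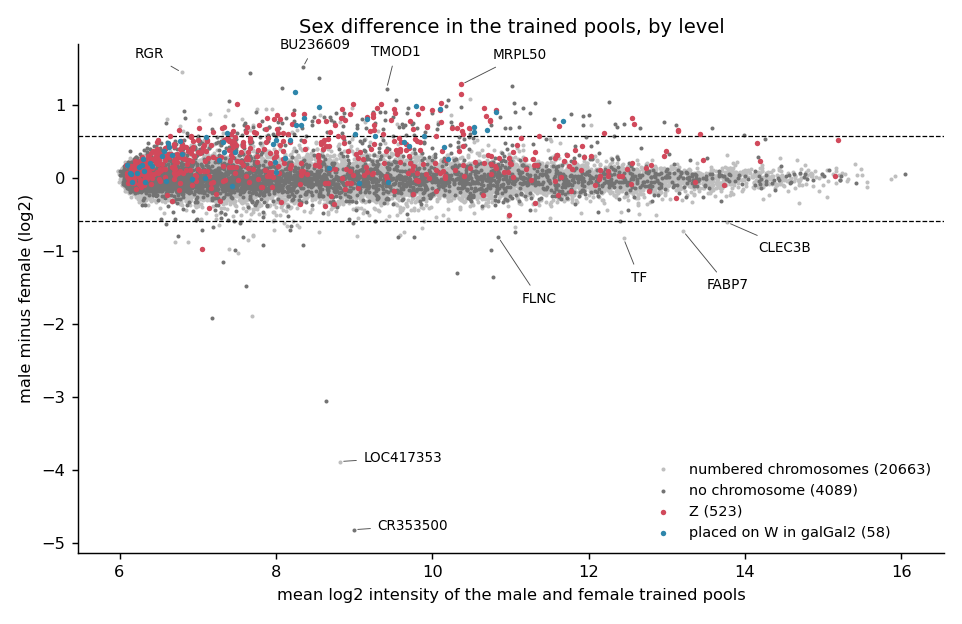
Male minus female difference (log2) of each probe in the trained pools against its mean log2 intensity, with 1 point per probe and dashed lines at 1.5-fold; the 17 mitochondrial probes are not drawn. The Z probes (red) lie mostly above 0 at all levels, and the probes that galGal2 places on W (blue) lie mostly above 0 as well. Probes with signal in 1 sex alone are not drawn.

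Genes of the W chromosome separated the pools. HINTW, a W-linked relative of a histidine triad nucleotide-binding protein, is among the best known female-specific transcripts of birds. Its brighter probe measured 14.24 in the female and 5.82 in the male trained pool, which was not well above background, so HINTW was at least 315-fold higher in females. It was at least 309.8-fold higher in the dark-reared females (14.24 against 5.97). A second HINTW probe (galGal2 chrUn:44541094-44541153), described on the array as female-associated factor FAF, gave 8.62 and 5.84, at least 6.41-fold. Each bound sets the value of the pool with signal against the dim pool's own value or the lowest value well above background on that array, whichever is higher.

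HNRNPKL, the W copy of the RNA-binding protein gene HNRNPK, measured 9.997 in females and 5.91 in males and was at least 16.6-fold higher in females. UBE2R2L, the W copy of a ubiquitin-conjugating enzyme gene, measured 7.14 against 5.87, at least 2.29-fold. SPIN1L, a spindlin gene listed on W, was measured in both sexes, at 6.61 and 6.57, a difference of -0.04. The uncharacterised W gene LOC427010 measured 6.94 and 6.76 (-0.18). Both genes lay close to background, where the offset makes differences smaller. The lowest values well above background were 5.92 in females and 5.94 in males. Signal of a W probe in males can be read only as signal at that spot, because the related Z transcript is present in both sexes and cross-hybridisation was not tested.

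In all, 1071 of the 42034 probes had signal in the female pool alone and 488 in the male pool alone. On the female array 26438 probes were well above background and on the male array 25855, so sex and array cannot be told apart in these counts. Of the 1071, 33 had a bound of at least 1.5-fold, and 31 of these 33 reached that in the dark-reared pools too. The other two were BU361571 and BU450117, which were chosen for mention after their values were seen. Besides those named above, 2 unnamed transcripts had the next highest bounds: BX932129 (chrUn:24585164-24585223) measured 11.29 and 5.81, at least 40.8-fold, and CR386897 measured 10.48 and 5.87, at least 23.1-fold. LOC427101, predicted from its similarity to the Z-linked chromo-helicase gene and placed on chrW:151615-152079, measured 7.68 and 5.81, at least 3.32-fold. SHCBP1, which encodes an SHC-binding protein, and YEATS2, a histone-reader gene, are listed on chromosomes 11 and 9 and had bounds of 1.66-fold and 1.61-fold. These 2 were close to background in females as well, at 6.77 and 6.71.

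Unnamed probes gave the greatest female excess among those measured in both sexes. CR353500 (chrUn:91673963-91674022) measured 11.41 in females and 6.59 in males, 28.2-fold. LOC417353, placed on chr18:4073715-4073774, measured 10.76 and 6.88, 14.7-fold. BU403218 measured 8.14 and 6.23, 3.76-fold. For all 3 the dark-reared pools gave differences in the same direction, of -4.61, -3.62 and -2.43. CO770952 (chrUn:127640203-127640262) measured 10.17 and 7.12, 8.31-fold, but 8.44 and 7.42 in the dark-reared pools. TC202829 (chr11:11497128-11497187) measured 8.64 and 6.76, 3.69-fold, against 7.35 and 6.86. In these last 2 the trained female pool stood above the other three. With the software's processed signal the 5 differences were larger, at -6.25, -4.81, -4.44, -3.88 and -2.93 in the order given.

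Probes on the Z chromosome were mostly higher in males in every stretch that galGal2 assembles, where the placed probes reach position 33434175. The 523 probes placed on Z had a median difference of 0.24, or 1.18-fold, with quartiles of 0.07 and 0.45, and 86.0% lay above 0. Their median in the dark-reared pools was 0.26. The 20663 probes on numbered chromosomes had a median of -0.01, with 45.5% above 0, and the medians of the 27 numbered chromosomes with at least 20 probes ran from -0.04 to 0.00. Of the Z probes 76 (14.5%) were at least 1.5-fold higher in males and 6 were at least 2-fold higher, whereas 29 of the autosomal probes (0.14%) reached 1.5-fold. With this offset the other 517 Z probes differed by less than 2-fold, which is the difference in the number of Z copies. The background offset makes differences of dim probes smaller, so this count depends on it. The Z median was 0.31 with an offset of 16 and 0.41 with the software's processed signal. How many Z probes reach 2-fold under those settings is not given.

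With other choices of Z probes the median stayed above 0, and it was higher for genes listed on Z. The 351 probes of genes listed on Z had a median of 0.31, with 91.7% above 0. Of them 82 (23.4%) were at least 1.5-fold higher in males, against 14.5% of the probes placed on Z. Among these, 168 that galGal2 does not place had a median of 0.28, and 698 equally unplaced probes of genes listed on autosomes had a median of -0.01. Bright Z probes, with a mean log2 level of at least 10, had a median of 0.23, close to the 0.24 of dimmer ones. The shares past 1.5-fold differed more. Of 109 bright Z probes 23 (21.1%) were at least 1.5-fold higher in males, against 53 of 414 dimmer ones (12.8%). The offset makes the differences of dimmer probes smaller.

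**Figure D2:**
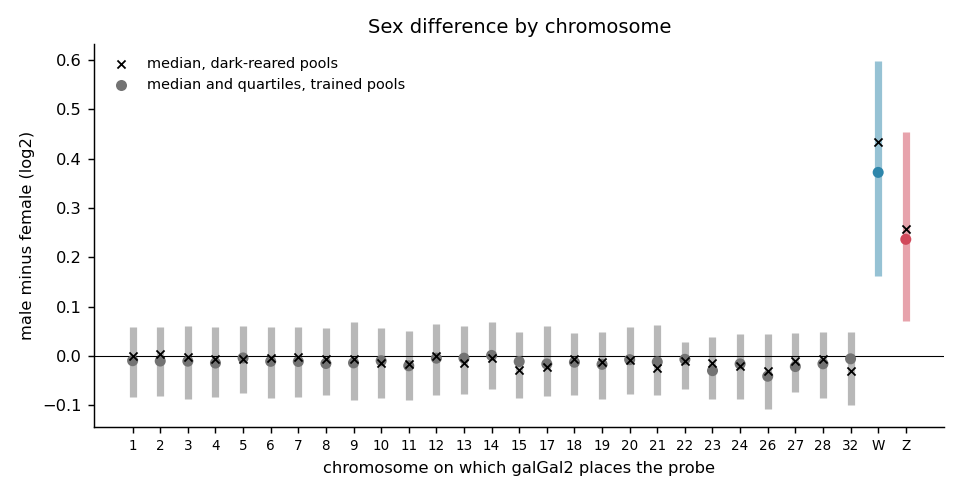
Median male minus female difference (log2) of the probes of each chromosome in the trained pools (circles) with quartiles (bars), and the median in the dark-reared pools (crosses), for chromosomes with at least 20 probes. The autosomes lie between -0.04 and 0.00, Z at 0.24 and the probes that galGal2 places on W at 0.37.

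Along Z, in windows of 5 Mb of galGal2 that held 36 to 104 probes, the median ran from 0.16 at 30 to 35 Mb to 0.31 at 20 to 25 Mb. The first window, from 0 to 5 Mb, had a median of 0.30 with 97.4% of its 78 probes above 0. The window from 10 to 15 Mb was lower, at 0.17 with 76.5% above 0. The medians from 10 to 15 Mb and from 30 to 35 Mb lay below the lower quartile of the first window, 0.18, and the other medians lay within the quartiles of every window. Just 1 Z probe was at least 1.5-fold higher in females: CR352731 (chrZ:12043320-12043379), named after its values were seen, measured 7.54 in females and 6.58 in males (-0.96), and -1.45 in the dark-reared pools. The reverse extreme was TC206747 (chrZ:4849565-4849624), which had signal in males alone, at 8.47 against 6.09, at least 5.20-fold.

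Probes that the older build places on W and that were measured in both sexes were mostly higher in males, as Z probes were. The older build places 79 probes on W, and 58 of them were well above background in both sexes. A W transcript with signal in females alone cannot be among the 58. LOC427101 and the unnamed CR524057 (chrW:162509-162567) were of that kind, with bounds of 3.32-fold and 2.36-fold. The 58 probes had a median of 0.37 toward males, and 87.9% were above 0. Of the 58, 15 were at least 1.5-fold higher in males and 0 at least 1.5-fold higher in females. Of the 19 named probes among them, 18 belong to genes now listed on Z, and SPIN1L is the exception. C5orf63 (chrW:4180038-4180097) measured 9.30 in females and 10.29 in males, 1.98-fold. FAM172A (chrW:2421762-2421821) measured 10.36 and 11.27, 1.88-fold. MBLAC2 (chrW:1354462-1354521) measured 7.95 and 8.77, 1.76-fold. PHAX, an adaptor for export of small nuclear RNA, and CETN3, a centrin, differed by 0.64 and 0.70. LMNB1, which encodes lamin B1, differed by 0.23, and RFESD by -0.02. SLF1, a DNA repair factor, was read by 2 probes, with differences of 0.61 and 0.97.

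Some probes near the start of galGal2 chromosome 14 were also higher in males, which was noticed after their values were seen. Chromosome 14 held 6 of the 29 autosomal probes higher in males, 0.79% of its 763 probes against 0.14% over all autosomal probes. Of these 6, 4 lay between 0.53 and 1.46 Mb, a stretch whose ends are the called probes TC203814 and HDHD2 themselves. Their share of the probes measured there is not given, so whether the stretch differs from the rest of the chromosome was not tested. HDHD2 (chr14:1457949-1458008), a predicted phosphatase, measured 9.81 in females and 10.67 in males, 1.82-fold, and 1.76-fold in the dark-reared pools. HDHD2 is listed on Z. The unnamed BU303296, TC203814 and TC206093 in that stretch differed by 0.95, 0.77 and 0.66, and by 1.15, 1.11 and 0.47 in the dark-reared pools.

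The Z genes with the greatest male excess had varied roles. MRPL50 (chrZ:27561239-27561298), a protein of the large mitochondrial ribosomal subunit, measured 9.73 in the female and 11.02 in the male pool, 2.44-fold. MRPS30 (chrZ:7223350-7223408), another mitochondrial ribosomal protein, measured 9.53 and 10.46, 1.92-fold. NDUFS4 (chrZ:9007833-9007892), an accessory subunit of respiratory complex I, measured 9.60 and 10.63, 2.05-fold. Their dark-reared differences were 1.25, 0.89 and 0.99.

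TMOD1, which caps the pointed ends of actin filaments, measured 8.80 and 10.03, 2.34-fold. XPA, a damage-recognition factor of nucleotide excision repair, measured 11.74 and 12.78, 2.06-fold. NUDT2, a hydrolase of dinucleoside polyphosphates, measured 9.88 and 10.86, 1.98-fold. These 3 genes are listed on Z although galGal2 does not place their probes, and their dark-reared differences were 1.14, 0.95 and 0.92. ZFAND5 (chrZ:16525564-16525623), a zinc finger protein linked to the proteasome, was 2.03-fold higher in males, and PLIN2 (chrZ:13667342-13667401), which coats lipid droplets, was 1.91-fold higher. AK6, an adenylate kinase, was read by 3 probes with differences of 0.58 to 1.01.

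Z genes with a gametolog on W were mostly higher in males, although females carry a W copy as well. Of the 23 such genes listed, 12 were on the array and 10 were measured in both sexes. The median difference of the 10 was 0.61 against -0.01 over all 7318 genes, 9 of them were above 0, and 6 were at least 1.5-fold higher in males. Over all genes 88 (1.20%) were at least 1.5-fold higher in males. Over the 351 probes of genes listed on Z the median was 0.31, 91.7% were above 0, and 23.4% were at least 1.5-fold higher in males. UBE2R2 measured 10.60 in females and 11.51 in males, 1.87-fold, the opposite direction to its W copy UBE2R2L. SMAD2 (chrZ:120148-120207), a transducer of activin and TGF-beta signals, measured 10.26 and 11.11, 1.81-fold. The Z partner of HINTW, called HINT1 on the array and HINT2 in RefSeq, measured 13.69 and 14.28, 1.51-fold, and lay just under 1.5-fold (0.57 and 0.55) with Cy3 normalized alone by quantile or centred on its median.

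CHD1 (chrZ:23384823-23384882), a chromatin remodeller used for sexing birds, measured 8.38 and 9.01, 1.55-fold. ST8SIA3, a brain sialyltransferase, and TXNL1, a thioredoxin-like protein, differed by 0.85 and 0.77. SUB1, a transcriptional coactivator, lay just under the threshold at 0.58, and SPIN1 differed by 0.30. ZFR differed by 0.04 near background. UBAP2 was the member below 0: its brighter probe measured 9.56 in females and 9.22 in males (-0.33), and -0.46 in the dark-reared pools, while its dimmer probe differed by -0.02. UBAP2 has a W copy, and whether these probes tell the copies apart was not tested.

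Genes listed on Z also set the upper ends of lists chosen for brain function. Over 16 gene groups with 262 measured genes, the group medians ran from -0.04 to 0.07. The 16 genes on Z among these had a median of 0.41, and the other genes a median of -0.01. In 9 of the 10 groups with a Z gene, that gene, or 1 of them, was the highest of its group, and the exception was the growth factor group. HSD17B4 and NDUFS4, both on Z, were the 2 members at least 1.5-fold different in any group. Over all 7318 genes 88 (1.20%) were at least 1.5-fold higher in males and 8 (0.109%) in females. Counts within single groups are to be read beside these shares, which leave few genes to reach 1.5-fold in lists of this size.

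HSD17B4, a peroxisomal enzyme of fatty acid oxidation that can also oxidise oestradiol, measured 12.09 in females and 12.82 in males, 1.67-fold. CYP19A1, the aromatase that makes oestrogen from androgen, measured 6.85 and 6.54 (-0.31) near background, and -0.23 in the dark-reared pools. The oestrogen receptor gene ESR2 differed by -0.05, and ESR1 and PGR were not well above background in either sex. Of 10 measured genes for steroid synthesis and reception 1 was at least 1.5-fold different.

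CRHBP (chrZ:10712835-10712894), which binds and sequesters corticotropin-releasing hormone, measured 10.86 and 11.41, a difference of 0.55, and 0.91 in the dark-reared pools. NTRK2, the receptor for brain-derived neurotrophic factor, measured 9.11 and 9.52 (0.42), and its ligand BDNF, listed on chromosome 5, differed by 0.26. NFIL3 (chrZ:19420501-19420560), a transcription factor that acts in circadian and immune control, differed by 0.51. The other immediate early genes lay between -0.25 and 0.27, and 0 of the 16 measured reached 1.5-fold. GRP, which encodes gastrin-releasing peptide, differed by 0.29, and among 17 neuropeptide genes CHGB was lowest, at -0.33.

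RPS23 and RPS6 on Z differed by 0.52 and 0.49 while the median of 31 cytosolic ribosomal protein genes was 0.00. ISL1, a homeodomain factor of Z, differed by 0.47, and the other 20 region-marking genes measured lay between -0.13 and 0.09. DIO2, the enzyme that activates thyroid hormone, measured 10.26 and 10.37 in the trained pools and 9.27 and 9.48 in the dark-reared pools. Its sex difference was 0.11 in the trained pools and 0.21 in the dark-reared pools.

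**Figure D3:**
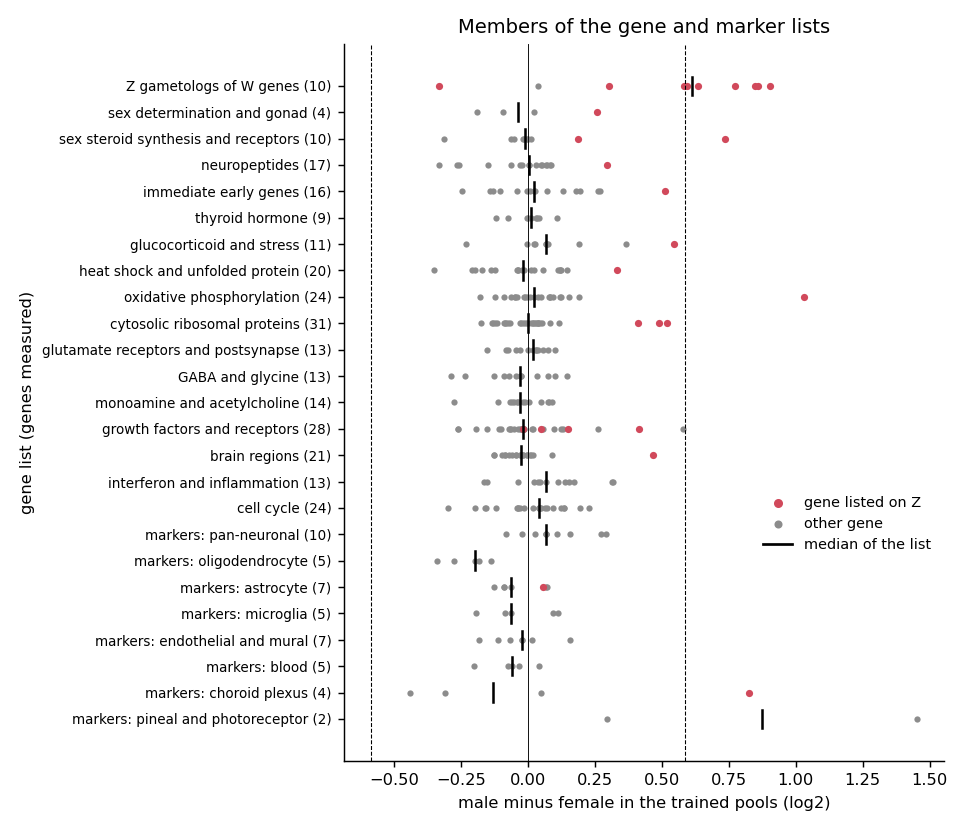
Male minus female difference (log2) in the trained pools of each measured gene of the gene and marker lists, with genes listed on Z in red, others in grey, a bar at each list's median and dashed lines at 1.5-fold. A Z gene is the highest point in 9 of the 16 gene groups, and the oligodendrocyte markers lie to the left of 0.

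Away from Z, differences of at least 1.5-fold were few, and some were seen in both conditions. IFI6 (chr2:89610413-89610472), an interferon-induced gene named ISG12-2 on the array, measured 7.28 in females and 8.23 in males, 1.93-fold, and 1.90-fold in the dark-reared pools. IFI6 is not a member of the interferon and inflammation list. The 13 measured genes of that list had a median of 0.07, the highest being IRF1 at 0.32, and 0 reached 1.5-fold. Of the 13, 10 lay above 0 and 3 below, and the median in the dark-reared pools was 0.15. FLNC, an actin-crosslinking filamin, measured 11.25 and 10.44, 1.75-fold higher in females, and 1.86-fold in the dark-reared pools. C1orf131 (chr3:36840330-36840389) measured 10.004 and 9.27, 1.66-fold higher in females. The unnamed TC224651, placed 5941 bases from C1orf131 and chosen after its values were seen, differed by -0.77. The dark-reared differences of the last 2 were -0.84 and -0.80.

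TF (chr9:9014962-9015021), transferrin, the iron carrier made in the brain largely by oligodendrocytes and choroid plexus, measured 12.86 in females and 12.03 in males, 1.77-fold higher in females. The dark-reared pools gave 12.44 and 11.84, 1.51-fold. All 5 measured oligodendrocyte markers were lower in the trained males, with a median of -0.20. MBP, the main protein of compact myelin, measured 14.86 and 14.52 (-0.34), and CNP, another myelin enzyme, measured 11.86 and 11.58 (-0.28). In the dark-reared pools the median of these 5 was 0.03 and MBP differed by 0.03. Their summed trained intensity was 40720 in females and 32937 in males, and their part in the TF difference was not tested. In whole brain, fewer cells of a type and less RNA per cell cannot be told apart.

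The other lists of brain cell markers had medians nearer to 0, while the 2 pineal and photoreceptor markers measured in both sexes, RGR and AANAT, are described with their group. The medians were 0.07 for 10 neuronal, -0.07 for 7 astrocyte, -0.06 for 5 microglial, -0.02 for 7 vascular and -0.06 for 5 blood markers. Of 4 choroid plexus markers, with a median of -0.13, the water channel AQP1 differed by -0.44 and KL, klotho, by -0.31, while PRLR, the prolactin receptor on Z, measured 7.72 and 8.54 (0.83). TTR, the defining transcript of choroid plexus, was not well above background in either trained pool. Of 7 pituitary markers on the array 0 were measured in both sexes.

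The trained and dark-reared pools shared the Z pattern but not the autosomal one to the same extent. Of the 227 probes at least 1.5-fold higher in trained males, 215 had the same sign in the dark-reared pools and 169 reached 1.5-fold there. For the 76 Z probes the counts were 76 and 64. For the 29 autosomal probes they were 20 and 8, of which chromosome 14 gave 6 and 4. Of 52 probes higher in trained females and measured in the dark-reared pools, 34 had the same sign and 19 reached 1.5-fold. Among all 25207 probes measured in all 4 pools, 60.7% had the same sign in both conditions. The share was 59.0% for the 20556 autosomal probes and 91.5% for the 520 Z probes. The same-sign counts above are to be read beside these shares. Both conditions were read from the same spots of the same 2 arrays, so an error of a spot enters both, and the difference between conditions was not tested. The 2 conditions also carry different dyes with no dye swap. The loess step acts on dye effects that vary with intensity and not on those of a single probe. Where the levels of trained and dark-reared pools are ranked together, dye and condition cannot be told apart. Of all 27134 probes measured in both dark-reared pools, 281 (1.04%) were at least 1.5-fold higher in males and 63 (0.232%) at least 1.5-fold higher in females.

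**Figure D4:**
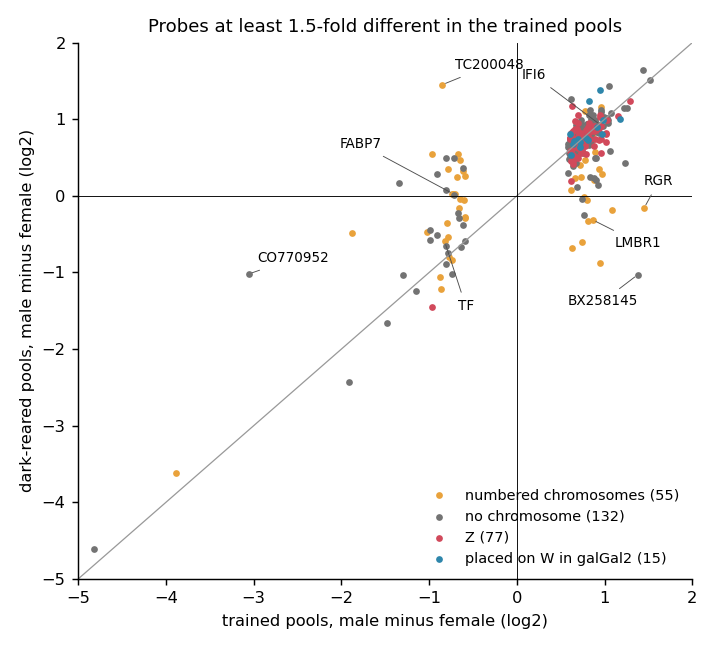
Male minus female difference (log2) in the dark-reared pools against that in the trained pools, for the 279 probes at least 1.5-fold different in the trained pools and measured in all 4 pools; the line marks equal differences. The Z probes cluster along the line, and RGR, FABP7, LMBR1 and BX258145 lie off it.

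Some autosomal genes differed by sex in the trained pools and much less in the dark-reared ones. FABP7 (chr3:59667931-59667990), the fatty acid-binding protein of radial glia and astrocytes, measured 13.57 in the female and 12.85 in the male trained pool, 1.65-fold higher in females. In the dark-reared pools it measured 13.42 and 13.45, so the trained male pool was the lowest of the 4. CLEC3B (chr2:42183164-42183223), tetranectin, measured 14.07 and 13.47 in the trained pools and 14.21 and 14.15 in the dark-reared pools, again with the trained male pool low.

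KBTBD3, CDIN1 and LOC425117 were higher in females in the trained pools and higher in males in the dark-reared pools. Their differences were -0.65, -0.59 and -0.81 in the trained pools and 0.47, 0.26 and 0.49 in the dark-reared pools. KBTBD3 encodes a kelch-repeat protein, CDIN1 is tied to inherited anaemia in humans, and LOC425117 is uncharacterised. For LOC425117 the trained female pool, at 10.17, was the high one, and the other three lay between 9.26 and 9.75. BTBD7, SLC25A47 and METTL9, at -0.57, -0.56 and -0.53, stayed under 1.5-fold. IL12RB2, C17orf67, LSM4 and AATF, the last 4 of the 15 named genes with the greatest female excess, lay between -0.49 and -0.47.

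In the other direction, BBS5 (chr7:19461845-19462733), a component of the BBSome that carries membrane proteins to cilia, measured 8.49 in females and 9.46 in males, 1.95-fold, and 8.98 and 9.26 in the dark-reared pools. The trained female pool was the lowest of the 4. LMBR1 (chr2:7870332-7874583), a membrane protein gene chosen after its values were seen, measured 8.13 and 8.99 in the trained pools and 8.18 and 7.87 in the dark-reared pools, so the trained male pool was the high one. GFRA1 (chr6:27663607-27663666), a receptor for glial cell line-derived neurotrophic factor, measured 8.70 and 9.28 (0.58), just under the threshold, and differed by -0.07 in the dark-reared pools.

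RGR, OPNP, ASMT and RBP4, genes of the pineal gland or of photoreceptors, had their highest value in the trained male pool. The pineal of birds is itself light-sensitive: it holds the photopigment pinopsin, and its cells make melatonin through AANAT and ASMT. RGR (chr6:2452935-2452994), an opsin-like protein that regenerates retinal, had the greatest male excess of any named gene, at 6.07 in females and 7.52 in males, 2.73-fold. In the dark-reared pools it measured 6.08 and 5.92. Its difference was 4.20 with the software's processed signal and 2.27 with a smaller background offset, and its female value lay near background.

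OPNP (chr19:6621658-6621717), pinopsin, measured 5.79 in females, not well above background, and 6.98 in males, at least 2.08-fold. ASMT (chr1:122070808-122070867), which makes the last step of melatonin synthesis, measured 5.95 and 6.95, at least 2.00-fold. RBP4 (chrZ:25412480-25412539), described on the array as purpurin, a retinol-binding protein of the chick retina and pineal, measured 5.84 and 6.94, at least 2.03-fold. All 3 were not well above background in either dark-reared pool, where their male values were 5.77, 5.71 and 5.75. Their trained male values were themselves close to background, as the lowest male value well above it was 5.94. CO766522, an unnamed transcript (chrUn:74754781-74754840), measured 5.90 and 7.18, at least 2.40-fold, and 5.99 and 5.92 in the dark-reared pools. Together with TC206747 on Z these were the 5 probes with a bound of at least 1.5-fold, out of 488 with signal in the trained males alone.

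Other light-sensing genes measured in both sexes differed by less than 1.5-fold. AANAT, the enzyme that paces melatonin synthesis, measured 7.22 and 7.52 (0.29) in the trained pools and 7.19 and 7.02 in the dark-reared pools. PDE6G, the inhibitory subunit of the photoreceptor phosphodiesterase, differed by 0.34, and by -0.31 in the dark-reared pools. RPE65, the visual-cycle isomerase, differed by 0.36. PDE6B, on Z, differed by 0.50 and by 0.56 in the dark-reared pools. A longer list of 65 pineal and retinal genes was drawn up after values were seen and holds the genes that prompted it, so it gives no support of its own. Of these genes 36 were on the array, 16 were measured in both sexes, and 1 of the 16, RGR, was at least 1.5-fold higher in males. Another 5 had signal in 1 sex alone, and 15 were measured in neither. Among the 5 were OPNP, ASMT and RBP4, and the rest had bounds under 1.5-fold. TPH1, the first enzyme of the melatonin pathway, and the opsin gene OPN4 were not well above background in either trained pool. How much pineal or retinal tissue each pool held was not tested.

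**Figure D5:**
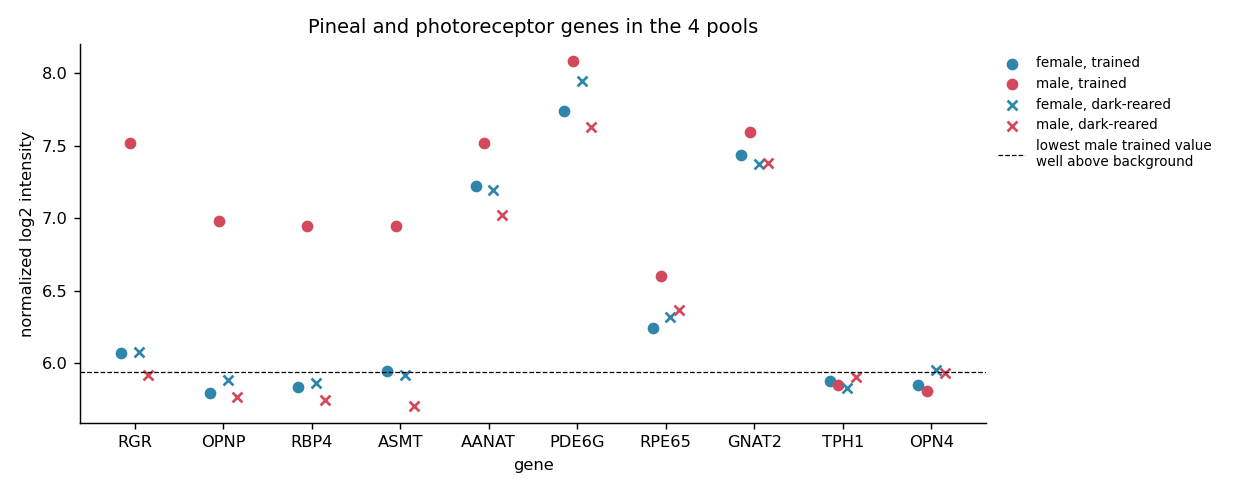
Normalized log2 intensity of 10 pineal and photoreceptor genes in the 4 pools (circles trained, crosses dark-reared, blue female, red male), with the lowest male trained value well above background as a dashed line. For RGR, OPNP, RBP4 and ASMT the trained male pool stands above the other three pools, which lie near the line.

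Several unnamed transcripts were higher in males in both conditions. BU236609 measured 7.58 in females and 9.11 in males, 2.87-fold, and differed by 1.51 in the dark-reared pools. TC226703 measured 6.95 and 8.39, 2.72-fold, and differed by 1.64. BU445612 measured 10.39 and 11.65, 2.40-fold, and differed by 1.15. BU141197 (chrUn:12024535-12024594) measured 7.46 and 8.69, 2.35-fold, and differed by 0.43. The first 3 of these 4 thus had similar differences in trained and dark-reared pools, and galGal2 places none of the 4 on a chromosome.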

How the data were processed

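Per the labels, RNA of 8 chicks per sex and condition was pooled in equal amounts, amplified and labelled, trained in Cy3 and dark-reared in Cy5; the codes in the sample titles give the pools in the other order, without dyes. The deposited scanner tables give each probe's mean and background intensity without normalization, per the file headers, together with a processed intensity. The headers name Feature Extraction version 9.5.3.1, whereas the submitters' processing notes give 8.5.1.1. Depth is set by the 2 arrays, whose number limits the precision.

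Intensities were corrected with normexp (offset 50), normalized by loess within arrays with control spots at weight 0 and by Aquantile between arrays, in limma 3.58.1 under R 4.3.3. The Cy3 values were compared as log2 male minus female. After removal of 17 probes flagged as outliers, those well above background on both arrays were kept. A difference of 1.5-fold was counted, with no p-value. With 1 array per sex no batch can be separated from sex. The deposited series table, whose log2 ratios set trained against dark-reared within a sex, was not used.

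Probes were named through RefSeq's GRCg7b table by accession (5308), gene number (3781), array symbol (885) or synonym (97), while 109 retained the name on the array and 31853 had no symbol. Chromosomes and coordinates are galGal2's, and no gene models of that build were used. Each gene is its brightest probe. Genes were named by size: the 15 with the greatest difference each way, the 5 highest bounds each way, W genes and gametologs, and the 2 greatest of each list with up to 4 past 1.5-fold. Some genes within this rule are not described above, several that galGal2 places on W among them. CAPSL, listed on Z, differed by 0.93. ALDH1A1 and a probe of SPEN had signal in males alone, with bounds of 1.28-fold and 1.21-fold. Genes outside the rule are given as members of their lists or marked in the text. The members and lists were chosen with earlier results of these data known. The steps were tested on simulated data.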

Additional observations from a re-analysis of the deposited data

Results flagged for a closer look

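Of the 279 probes at least 1.5-fold different between the trained pools and measured in the dark-reared pools, 5 were at least 1.5-fold different in the opposite direction there. The difference between conditions was not tested for any of them. BX258145 differed by 1.38 (7.87 in females, 9.25 in males) in the trained and by -1.03 (8.64 and 7.61) in the dark-reared pools. CO760181 (chr3:74137164-74137220), from a brain library, differed by 0.95 and -0.88. CN234150 (chr2:44538095-44538155), also from a brain library, differed by 0.75 and -0.60. TC200048 (chr1:26426740-26426798) went the other way, with -0.85 (8.06 and 7.21) in the trained and 1.45 (6.80 and 8.25) in the dark-reared pools. UPP1 (chr2:79925199-79925258), which encodes a uridine phosphorylase and was the named gene among the 5, measured 7.89 in females and 8.52 in males in the trained pools (0.63) and 8.53 and 7.86 in the dark-reared pools (-0.68).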

How the results depend on the processing

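No paired analysis was possible because each sex has a single array. Under every alternative run, the Z median stayed above 0, from 0.11 to 0.41, and the autosomal median between -0.02 and 0.00. The software's processed signal gave 837 probes at least 1.5-fold higher in males and 436 in females, a Z median of 0.41 and 194 Z probes. An offset of 16 gave 364, 96 and 119 Z probes. With no filter on dim probes, 87 were higher in females and the Z median was 0.11; with signal needed on at least 1 array, 87 were again higher in females. A 2-fold threshold left 21, 10 and 6. Of the 45 named genes and probes measured in both sexes and past 1.5-fold, all 45 kept their direction under the 5 other ways of normalizing. From 42 to 45 stayed past it. Those lost were CDIN1 and HINT2 with Cy3 normalized alone by quantile, and CDIN1, HINT2 and CHD1 with Cy3 centred on its median. Genes given by bounds are outside this count. Among them SHCBP1 and YEATS2 fell under 1.5-fold, at -0.57 and -0.52 by quantile and -0.53 and -0.48 by centring. The other genes with a symbol and such a bound stayed past it under both. The offset added before the log makes differences of dim probes smaller, and it makes their noise smaller too. How far each lay behind the larger counts with an offset of 16 was not tested. The folds of dim probes such as RGR thus depend on the offset. The cause of the other changes was not tested.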
